A study of Mus musculus with 6 samples.

Results

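Fibroblast growth factor (FGF) signalling was followed through 9 genes, 1 ligand (Fgf10), 4 receptors (Fgfr1, Fgfr2, Fgfr3 and Fgfr4) and 4 genes that the pathway is known to switch on (Spry2, Etv4, Etv5 and Dusp6). The genes were taken by name, as a ligand, receptor and target set, and all 9 were among the 31028 genes of the E10.5 RNA matrix. Of them, 7 were among the 8269 genes of the chromatin accessibility (ATAC) matrices of E10.5 and E13.5, where Fgfr3 and Fgfr4 were not listed. In the developing pancreas, FGF10 is made by the mesenchyme that surrounds the epithelial bud and binds mainly the epithelial splice form of FGFR2 on the progenitors, together with heparan sulfate at the cell surface. The signal runs through RAS and the ERK kinases and raises the transcription factors ETV4 and ETV5 as well as feedback inhibitors such as SPRY2 and DUSP6, so the RNA of these targets is widely read as a mark of recent FGF and ERK activity. The pathway is known for keeping pancreatic progenitors dividing and for holding back endocrine differentiation.

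All embryos were C57BL/6 mice, either Ptf1a+/+ (WT) or homozygous for a deletion of a Ptf1a enhancer (KO, labelled Ptf1aenh-delta/enh-delta). The product of Ptf1a is a transcription factor that pancreatic progenitors need. Pancreatic tissue was dissected from pools of 5 to 9 embryos per dataset at E10.5, for single-cell RNA sequencing and, apart from it, for single-nucleus ATAC sequencing, and from 6 embryos per dataset at E13.5, for ATAC sequencing alone. Each genotype, stage and assay was 1 library, so no difference between genotypes has a replicate check, none was tested, and every interval below covers counting error only. The labels give the genotype for the whole embryo, mesenchyme included.

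The WT RNA library held 4665222 unique molecular identifiers (UMIs, counted RNA molecules) and the KO library 4360076, with a median of 6700 and 9856 UMIs in the 451 and 369 cells kept, which had at least 1000 detected genes. Ptf1a, the targeted gene, had 142 UMIs in the kept WT cells and 0 in the kept KO cells. The RNA libraries shared 1 cell barcode, the E10.5 ATAC libraries 0 and the E13.5 ATAC libraries 2. The WT and KO barcodes of E13.5 name different months, and month and genotype cannot be told apart there.

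Cells were grouped without any FGF gene, without Ptf1a and without acinar genes, so that no member defined a class. The mesenchyme-like class held 113 WT and 109 KO cells and was led by Col3a1, Nkx2-3, Fbn2, Hoxb4 and Barx1, with 17 of 17 mesenchymal markers raised. The progenitor-like class held 122 WT and 72 KO cells and was led by Nepn, Vtn, Spp1 and Gc, with 12 of 16 epithelial markers raised. The endocrine-like class held 66 WT and 138 KO cells and was led by Ghrl, Cartpt, Gcg and Sst, with 18 of 18 endocrine markers raised. A further cluster (150 WT and 50 KO cells, median depth 3181 and 2293 UMIs) was led by Gm42418, AY036118 and histone genes and stayed unnamed.

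The labels of the classes held only in part. Epcam, an epithelial adhesion gene, was found in 62 of 113 WT and 59 of 109 KO mesenchyme-like cells, at 243 and 209 CPM (a gene's UMIs scaled to a total of 1e6 UMIs over the cells of the class) against 757 and 858 CPM in the progenitor-like class. The hormone gene Gcg stood at 2984 and 4096 CPM in the mesenchyme-like class. The summed epithelial marker list stood at 1980 CPM (WT) and 1867 CPM (KO) in mesenchyme-like cells and at 4983 and 4558 CPM in progenitor-like cells, and the summed mesenchymal list at 464 and 459 CPM in progenitor-like cells against 1958 and 2253 CPM in mesenchyme-like cells. The part of epithelial RNA in the receptor and target levels of the mesenchyme-like class was not tested beyond the values without Epcam-positive cells given below.

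The make-up of the progenitor-like class differed between the libraries. A finer grouping, added after the cells had been examined, put 107 of the WT cells (87.7%) in a pancreatic part and 15 (12.3%) in a hepatobiliary part, which carried Sox17 at 187 CPM. In the KO library 33 cells (45.8%) fell in the pancreatic part and 39 (54.2%) in the hepatobiliary part, with Sox17 at 169 CPM. Values of the whole class are therefore followed below by those of its parts.

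All 9 genes have a fixed place on the mouse genome (RefSeq, GRCm38.p6). The ligand Fgf10 lies at chr13:118714699-118792573 on the plus strand. The receptor genes lie at chr8:25518759-25575718 (Fgfr1, plus strand), chr7:130162451-130266808 (Fgfr2, minus strand), chr5:33721724-33737068 (Fgfr3, plus strand) and chr13:55152818-55168759 (Fgfr4, plus strand). The targets lie at chr14:105891947-105896819 (Spry2, minus strand), chr11:101769747-101785310 (Etv4, minus strand), chr16:22381313-22439570 (Etv5, minus strand) and chr10:99263231-99267489 (Dusp6, plus strand). The deposited files give 1 value per gene and cell, so no single exon, intron or enhancer was measured.

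ETV4 and ETV5 belong to the ETS family, whose members bind DNA around a GGAA core. The promoter table of RefSeq held 7 of the 9 genes, and Fgfr1 and Etv4 are named only. The 250 bases upstream of an annotated start are printed for the targets Spry2, Etv5 and Dusp6, because these are the genes read here as the output of the pathway. Capitals mark each GGAA and its reverse complement TTCC, and each sequence reads 5′ to 3′ on the strand of its gene. Spry2 is printed for chr14:105896820-105897069 (minus strand), Etv5 for chr16:22438369-22438618 (minus strand, before a start that lies inside the gene's span) and Dusp6 for chr10:99262981-99263230 (plus strand).
Spry2: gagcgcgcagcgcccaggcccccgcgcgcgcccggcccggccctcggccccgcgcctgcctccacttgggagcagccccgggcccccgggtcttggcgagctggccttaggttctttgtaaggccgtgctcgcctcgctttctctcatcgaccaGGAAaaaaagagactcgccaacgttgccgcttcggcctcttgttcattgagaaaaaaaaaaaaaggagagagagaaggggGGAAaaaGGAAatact
Etv5: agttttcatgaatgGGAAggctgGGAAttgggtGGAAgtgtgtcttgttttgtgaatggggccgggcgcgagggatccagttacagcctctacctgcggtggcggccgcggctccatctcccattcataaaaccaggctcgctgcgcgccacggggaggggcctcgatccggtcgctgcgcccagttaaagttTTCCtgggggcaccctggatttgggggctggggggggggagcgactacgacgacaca
Dusp6: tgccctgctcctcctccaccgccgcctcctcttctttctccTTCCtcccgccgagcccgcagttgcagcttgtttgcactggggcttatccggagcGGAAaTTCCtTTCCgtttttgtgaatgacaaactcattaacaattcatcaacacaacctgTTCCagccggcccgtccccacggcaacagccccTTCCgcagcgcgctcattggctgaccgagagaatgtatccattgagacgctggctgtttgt
Spry2 carried the core 3 times forward and 0 times in reverse, all of them in the second part of the window. Etv5 carried it 3 times forward and 1 time in reverse, and Dusp6 1 time forward and 5 times in reverse. The core is short and common: 94.2% of 27025 genes held GGAA or TTCC in such a window, and so did all 7 matched members. A longer form, CCGGAA or TTCCGG, lay in the windows of 13.6% of the genes and of 0 of the 7 members. The shares over all genes were taken on the full 250 bases. Bases in annotated exons were left out for the members, which shortened windows of Fgfr3, Fgfr4 and Etv5, so the windows are not quite alike. A match is a run of letters, not a measured binding site.

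Fgf10, the ligand, was found mainly in the mesenchyme-like class. It had 21 UMIs in WT and 34 in KO mesenchyme-like cells, which is 18.8 CPM (95% exact Poisson interval 11.7 to 28.8) and 28.1 CPM (19.4 to 39.2), and was seen in 13.3% and 24.8% of the cells. In progenitor-like cells it had 5 UMIs (3.02 CPM, 0.982 to 7.06) in WT and 1 UMI (0.864 CPM, 0.0219 to 4.81) in KO, in 4.10% and 1.39% of cells, although these were the deeper cells (a median of 13016.5 and 15695 UMIs against 5554 and 10179). In endocrine-like cells it had 3 UMIs in each library, 3.71 CPM in WT and 2.01 CPM in KO. The mesenchyme-like level was the highest of the classes in both libraries and its interval overlapped no epithelial interval there, while the progenitor-like and endocrine-like intervals overlapped each other.

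Within the WT library Fgf10 was 6.23-fold higher in mesenchyme-like than in progenitor-like cells (95% exact conditional interval 2.29 to 21.1), and within the KO library 32.5-fold (5.45 to 1320), a ratio that rests on the single UMI of the KO progenitor-like cells. Over endocrine-like cells it was 5.08-fold (1.52 to 26.6) and 14.0-fold (4.39 to 71.0) higher. Fgf10 was the only member at least 2-fold higher in mesenchyme-like than in progenitor-like cells in both libraries, of 8 members with at least 50 UMIs, and 2.39% of 9086 genes met that mark. It passed that filter only through its mesenchyme-like cells (21 and 34 UMIs, against 5 and 1 in progenitor-like cells). The filter thus favoured this outcome, and the count adds no support to the ratios. Ratios used for such counts were taken on CPM plus 10.

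KO over WT in the mesenchyme-like class, Fgf10 had a ratio of 1.49 (0.840 to 2.70), which includes no difference. Its log2 ratio of 0.40 (CPM plus 10) lay beside a median of 0.07 over 6814 genes, of which 12.1% were as high or higher. Mesenchyme-like cells without any Epcam UMI, a set added after the data had been examined, gave 3 UMIs in 51 WT cells (16.7 CPM, 3.45 to 48.9) and 14 UMIs in 50 KO cells (53.2 CPM, 29.1 to 89.2). The KO library was the higher one in both readings, and the intervals of the libraries overlapped in both.

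Within the mesenchyme-like class the finer groups did not differ in Fgf10 beyond counting error. The larger of its finer groups, cluster 0 with 85 WT and 71 KO cells, held 16 UMIs (23.3 CPM, 13.3 to 37.8) and 19 UMIs (35.7 CPM, 21.5 to 55.8). The smaller, cluster 4 with 21 and 36 cells, held 5 UMIs (12.4 CPM, 4.04 to 29.0) and 15 UMIs (22.6 CPM, 12.7 to 37.3), and it also carried Gcg at 7890 and 7391 CPM. The pancreatic part of the progenitor-like class had 4 Fgf10 UMIs in WT and 0 in KO, where 3 UMIs would have stood at 5.30 CPM.

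Of the 22 ligand genes of the list, 7 had 0 UMIs in all kept cells (Fgf2, Fgf4, Fgf6, Fgf16, Fgf18, Fgf21 and Fgf23), and Fgf7, the close relative of Fgf10 that also binds the epithelial form of FGFR2, had 1. Fgf9, which signals to mesenchymal receptors in other organs, had 107 UMIs in all kept cells, of which 48 were in WT and 22 in KO mesenchyme-like cells. Only 2 ligands, Fgf9 and Fgf10, had at least 50 UMIs in the mesenchyme-like class. Fgf9 was the lower of them KO over WT, at a log2 ratio of −0.91, from 43.1 to 18.2 CPM. It stood at 6.66 and 7.77 CPM in progenitor-like cells, below the mesenchyme-like level in each library.

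Fgfr1, the receptor best known from mesenchymal cells, was highest in the mesenchyme-like class and lowest in the endocrine-like class. Mesenchyme-like cells held 80 UMIs in WT (71.8 CPM, 56.9 to 89.3) and 94 in KO (77.6 CPM, 62.7 to 94.9), and it was seen in 45.1% and 52.3% of them. Progenitor-like cells held 74 UMIs (44.8 CPM, 35.2 to 56.2) and 68 UMIs (58.7 CPM, 45.6 to 74.5). Endocrine-like cells held 9 UMIs (11.1 CPM, 5.08 to 21.1) and 17 UMIs (11.4 CPM, 6.63 to 18.2), below the intervals of both other classes in both libraries. The mesenchyme-like over progenitor-like ratio was 1.60 (1.15 to 2.23) in WT and 1.32 (0.956 to 1.83) in KO, where these neighbours in the order did not differ beyond counting error.

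Over whole classes, no difference of Fgfr1 between the genotypes exceeded counting error. KO over WT it stood at 1.08 (0.794 to 1.48) in mesenchyme-like, 1.31 (0.930 to 1.85) in progenitor-like and 1.02 (0.432 to 2.61) in endocrine-like cells, and each of these intervals includes 1. The endocrine-like over progenitor-like ratio was 0.248 (0.109 to 0.497) in WT and 0.194 (0.107 to 0.334) in KO.

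Fgfr2, the main receptor for FGF10 on epithelium, had no class of its own. In WT it stood at 41.3 CPM (46 UMIs, 30.2 to 55.0) in mesenchyme-like and 38.1 CPM (63 UMIs, 29.3 to 48.8) in progenitor-like cells, a ratio of 1.08 (0.724 to 1.61). In KO it stood at 38.8 CPM (47 UMIs, 28.5 to 51.6) and 69.1 CPM (80 UMIs, 54.8 to 86.0), a ratio of 0.561 (0.383 to 0.815). Endocrine-like cells were lowest in both libraries, at 4.94 CPM (4 UMIs) and 12.1 CPM (18 UMIs). The counts add all splice forms, so the epithelial and mesenchymal forms of Fgfr2 cannot be told apart here.

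In the progenitor-like class Fgfr2 was 1.81-fold higher in KO than in WT (1.29 to 2.56), and seen in 58.3% against 36.9% of cells. Its log2 ratio of 0.72 on CPM plus 10 was matched or passed by 4.26% of 6882 genes, whose median was 0.14. Beside it, the share of hepatobiliary cells in the class was 12.3% in WT and 54.2% in KO, and within each library the hepatobiliary part had 2.04-fold (1.04 to 3.75) and 1.68-fold (1.05 to 2.75) more Fgfr2 than the pancreatic part. Within the pancreatic part alone the levels were 33.8 and 51.3 CPM, a ratio of 1.52 (0.924 to 2.45). Thinned to 2000 UMIs per cell, which left out 4 WT and 3 KO cells, the class had 15 and 8 Fgfr2 UMIs, at 63.6 and 58.0 CPM, and the KO cells were no longer the higher ones. With so few UMIs the thinned values cannot be told apart from the ratio at full depth.

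KO over WT, Fgfr2 stood at 0.940 (0.612 to 1.44) in the mesenchyme-like and 2.44 (0.804 to 9.92) in the endocrine-like class. Both intervals include 1. The endocrine-like over progenitor-like ratio was 0.130 (0.0343 to 0.349) in WT and 0.175 (0.0985 to 0.294) in KO.

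Fgfr4, a receptor best known from liver and endoderm, stood apart from Fgfr1 and Fgfr2 in endocrine-like cells, where its level was near that of the progenitor-like class. It stood at 18.5 CPM (15 UMIs, 10.4 to 30.6) in WT and 27.5 CPM (41 UMIs, 19.7 to 37.3) in KO endocrine-like cells, and at 27.8 CPM (46 UMIs, 20.4 to 37.1) and 30.2 CPM (35 UMIs, 21.1 to 42.0) in progenitor-like cells. The endocrine-like over progenitor-like ratio was 0.666 (0.345 to 1.21) and 0.909 (0.565 to 1.47), so these neighbours did not differ beyond counting error. Mesenchyme-like cells were lower, at 15.2 CPM (17 UMIs) and 17.3 CPM (21 UMIs), a ratio to progenitor-like cells of 0.548 (0.294 to 0.974) in WT and 0.573 (0.317 to 1.01) in KO. KO over WT, Fgfr4 had a ratio of 1.48 (0.803 to 2.88) in endocrine-like cells.

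Fgfr3 was barely detected, with 28 UMIs in these classes together. It had 4 and 7 UMIs in mesenchyme-like, 5 and 10 in progenitor-like and 0 and 2 in endocrine-like cells, WT first. Its intervals overlapped between all classes, and no order can be read at this depth.

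**Figure D1:**
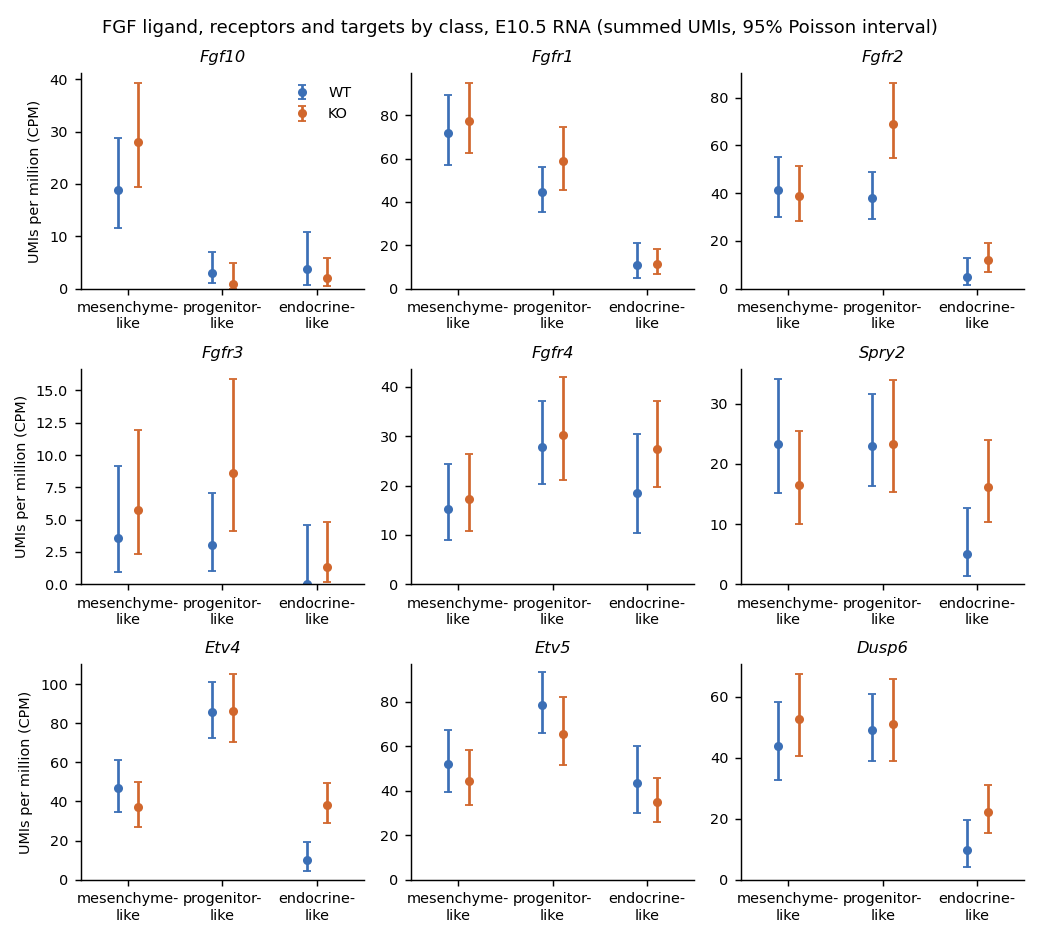
Level of each of the 9 genes (CPM, linear axis from 0) in mesenchyme-like, progenitor-like and endocrine-like cells of the WT (blue) and KO (orange) RNA library of E10.5; points are summed counts and bars the 95% exact Poisson interval, counting error only. Fgf10 is high in mesenchyme-like cells alone, Fgfr1, Fgfr2 and Dusp6 are lowest in endocrine-like cells in both libraries, and Etv4 in endocrine-like cells lies at 9.88 in WT and 38.2 in KO.

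Etv4, an ETS factor and a direct readout of the pathway, was highest in the progenitor-like class in both libraries. It stood at 85.9 CPM (142 UMIs, 72.4 to 101) in WT and 86.4 CPM (100 UMIs, 70.3 to 105) in KO progenitor-like cells, and was seen in 59.0% and 61.1% of them. Mesenchyme-like cells had 46.6 CPM (52 UMIs, 34.8 to 61.2) and 37.1 CPM (45 UMIs, 27.1 to 49.7). The progenitor-like intervals of the libraries nearly coincided, with a KO over WT ratio of 1.01 (0.770 to 1.31), and the ratio in mesenchyme-like cells was 0.796 (0.522 to 1.21).

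In endocrine-like cells Etv4 had 8 UMIs in WT (9.88 CPM, 4.27 to 19.5) and 57 in KO (38.2 CPM, 28.9 to 49.5), in 10.6% and 31.2% of cells. The intervals of the libraries did not overlap. Etv4 was 3.86-fold higher in KO (1.83 to 9.38), with a log2 ratio of 1.28 on CPM plus 10 that ranked 8 of 6565 genes, beside a median of 0.08. It was 1 of the 3 members with enough UMIs in that class (at least 50 in both libraries together). It was the only one of them at least 2-fold apart, and 0.533% of genes were that far apart in either direction. Etv4 passed the filter only through its KO UMIs, while Spry2 and Dusp6 fell below it. The filter thus shaped this count and rank, which add no support to the ratio. After thinning to 2000 UMIs per cell, which left out 1 cell in each library, Etv4 had 0 UMIs in 65 WT and 9 UMIs in 137 KO endocrine-like cells.

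The endocrine-like over progenitor-like ratio of Etv4 was 0.115 (0.0487 to 0.233) in WT and 0.442 (0.314 to 0.618) in KO. The order of the classes differed as well: in WT the mesenchyme-like level was 4.72-fold (2.23 to 11.5) that of endocrine-like cells, and in KO 0.972-fold (0.643 to 1.46). Neurog3, the gene that starts endocrine differentiation, was found in 8 of 66 WT and 34 of 138 KO endocrine-like cells, at 54.3 and 113 CPM. Its part in the Etv4 values was not tested.

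Etv5, the close relative of Etv4, was highest in progenitor-like and lowest in endocrine-like cells in both libraries. It stood at 78.7 CPM (130 UMIs, 65.7 to 93.4) and 65.6 CPM (76 UMIs, 51.7 to 82.2) in progenitor-like, 52.0 CPM (58 UMIs) and 44.6 CPM (54 UMIs) in mesenchyme-like, and 43.2 CPM (35 UMIs) and 34.8 CPM (52 UMIs) in endocrine-like cells. The lower 2 levels did not differ beyond counting error. KO over WT, Etv5 had a ratio of 0.835 (0.620 to 1.12) in progenitor-like and 0.806 (0.515 to 1.27) in endocrine-like cells. The endocrine-like over progenitor-like ratio was 0.550 (0.367 to 0.804) and 0.531 (0.366 to 0.765), closer to 1 in WT than that of Etv4, with intervals that did not overlap.

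Dusp6, a phosphatase that switches ERK off, stood at like levels in progenitor-like and mesenchyme-like cells. Progenitor-like cells had 49.0 CPM (81 UMIs, 38.9 to 60.9) in WT and 51.0 CPM (59 UMIs, 38.8 to 65.7) in KO, and mesenchyme-like cells 44.0 CPM (49 UMIs, 32.5 to 58.1) and 52.8 CPM (64 UMIs, 40.7 to 67.4). Endocrine-like cells had 9.88 CPM (8 UMIs, 4.27 to 19.5) and 22.1 CPM (33 UMIs, 15.2 to 31.0), the lowest level in both libraries. KO over WT the ratio was 2.24 (1.01 to 5.61) in endocrine-like and 1.20 (0.815 to 1.78) in mesenchyme-like cells.

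Spry2, a feedback inhibitor of receptor signalling, had the fewest UMIs of the targets. It stood at 22.99 CPM (38 UMIs, 16.3 to 31.6) and 23.3 CPM (27 UMIs, 15.4 to 33.9) in progenitor-like and at 23.3 CPM (26 UMIs, 15.2 to 34.2) and 16.5 CPM (20 UMIs, 10.1 to 25.5) in mesenchyme-like cells, levels with overlapping intervals. Endocrine-like cells had 4.94 CPM (4 UMIs, 1.35 to 12.7) in WT and 16.1 CPM (24 UMIs, 10.3 to 23.9) in KO. That is a ratio of 3.25 (1.12 to 12.9) that rests on 4 WT UMIs, and Spry2 and Dusp6 were under 50 UMIs in that class and took no part in its count.

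Summed over Spry2, Etv4, Etv5 and Dusp6, the targets put the progenitor-like class first in both libraries. The sum was 237 CPM (391 UMIs, 214 to 261) in WT and 226 CPM (262 UMIs, 200 to 255) in KO progenitor-like cells, and 166 CPM (185 UMIs, 143 to 192) and 151 CPM (183 UMIs, 130 to 175) in mesenchyme-like cells. Endocrine-like cells had 67.9 CPM (55 UMIs, 51.2 to 88.4) and 111 CPM (166 UMIs, 94.9 to 130). No interval of a class overlapped that of the next class in the WT library; in the KO library the mesenchyme-like and endocrine-like intervals lay end to end at 130 CPM.

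Mesenchyme-like cells had 0.702 (0.586 to 0.838) of the progenitor-like target sum in WT and 0.667 (0.549 to 0.809) in KO. Endocrine-like cells had 0.287 (0.213 to 0.382) in WT and 0.491 (0.402 to 0.599) in KO, and these intervals of the libraries did not overlap. KO over WT the sum stood at 0.957 (0.815 to 1.12) in progenitor-like, 0.910 (0.738 to 1.12) in mesenchyme-like and 1.64 (1.20 to 2.26) in endocrine-like cells. No target UMI was found in 14.8% of WT and 20.8% of KO progenitor-like cells, 39.8% and 34.9% of mesenchyme-like cells and 50% and 42.0% of endocrine-like cells. The median depth of the mesenchyme-like cells was 5554 and 10179 UMIs, so these shares also move with depth.

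Counted by gene, 3 of 7 members with at least 50 UMIs (Fgfr1, Fgfr2 and Etv4) were at least 2-fold lower in endocrine-like than in progenitor-like cells in both libraries, where 3.99% of 9099 genes met that mark; Etv4 in KO lay right at it, with a log2 ratio of −1.0. The median log2 ratio of the 7 members was −1.38 in WT and −0.92 in KO, beside 0.06 and 0.01 over all genes. In the contrast of mesenchyme-like over endocrine-like cells, 3 of 8 members (Fgf10, Fgfr1 and Fgfr2) were at least 2-fold higher in both libraries, where 4.77% of 9100 genes were. Fgfr1 and Fgfr2 in both contrasts, and Fgf10 in the latter, passed the filter only through the class where they were higher. These counts therefore add no support to the ratios of those genes. KO over WT, 0 of 6 members with enough UMIs were 2-fold apart in mesenchyme-like cells and 0 of 7 in progenitor-like cells, where 0.631% and 2.09% of genes were.

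The targets differed between the parts of the progenitor-like class more than between the genotypes of the whole class. In the pancreatic part the sum was 257 CPM (372 UMIs, 231 to 284) in WT and 338 CPM (191 UMIs, 291 to 389) in KO, a ratio of 1.32 (1.10 to 1.57). In the hepatobiliary part it was 93.6 CPM (19 UMIs, 56.3 to 146) and 119.9 CPM (71 UMIs, 93.7 to 151). Within each library the hepatobiliary part thus had 0.365 (0.217 to 0.578) and 0.355 (0.267 to 0.469) of the pancreatic level. The part with fewer targets was the smaller one in WT and the larger one in KO, and over the whole class the KO over WT ratio was 0.957.

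In the pancreatic part each target stood higher in KO, Etv4 by more than counting error and the other targets within it. Etv4 stood at 94.5 CPM in WT and 131 CPM in KO, a ratio of 1.38 (1.03 to 1.85), and Dusp6 at 53.1 and 77.8 CPM, a ratio of 1.46 (0.987 to 2.15). Spry2 stood at 26.2 and 38.9 CPM and Etv5 at 82.8 and 90.2 CPM. Of the receptors, Fgfr1 stood at 46.2 CPM in WT and 70.7 CPM in KO there, a ratio of 1.53 (1.01 to 2.30), and Fgfr4 at 26.9 and 30.05 CPM. No fold of 2 was reached by any of these, and 12.2% of 5650 genes in that part were at least 1.5-fold higher in KO. Hhex, a gene of the early liver and pancreas buds, was also higher in the KO pancreatic part, at 140 against 44.8 CPM, and Cpa1, a marker of progenitors with active PTF1A, had 247 UMIs in WT and 0 in KO; their part in the target values was not tested.

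Hepatobiliary cells had less of Spry2, Etv4 and Dusp6 and more Fgfr2. Spry2 had 0 UMIs there in WT and stood at 8.44 CPM in KO, Etv4 stood at 24.6 and 43.9 CPM and Dusp6 at 19.7 and 25.3 CPM, while Fgfr2 stood at 68.9 and 86.1 CPM. These 3 targets were at least 2-fold below the pancreatic part in both libraries, 3 of 7 members, where 0.974% of 6882 genes were. All 3 passed the UMI filter only through the pancreatic part, where they were higher. The filter favoured this outcome, and the count adds no support to the ratios. Etv5, at 49.2 and 42.2 CPM, and Fgfr1, at 34.5 and 47.3 CPM, were lower than in the pancreatic part by less than that in at least 1 library.

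Mesenchyme-like cells also split by target level. Finer cluster 0 had a target sum of 215 CPM in WT and 231 CPM in KO, and finer cluster 4 one of 89.6 and 88.9 CPM, which is 0.416 (0.281 to 0.602) and 0.385 (0.277 to 0.529) of it. Dusp6 was the 1 of 6 members at least 2-fold lower in cluster 4 in both libraries, at 19.9 and 22.6 CPM against 58.2 and 92.1 CPM, where 0.873% of 6755 genes were. Dusp6 passed the UMI filter only through cluster 0, where it was higher, so the count adds no support to its ratio. Etv4 stood at 22.4 and 24.1 CPM against 62.6 and 54.5 CPM, and Fgfr1 at 54.7 and 63.3 CPM against 83.0 and 93.98 CPM. Cluster 4 is the group with Gcg. Over all its 74 cells, 17 of which fell in the endocrine-like class, it held 5 of the 10 doublet calls, and the part of endocrine RNA in its values was not tested.

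Without cluster 4, the target sum of the mesenchyme-like class came to the level of the progenitor-like class in KO (log2 ratio 0.00) and to −0.17 in WT. In cells without an Epcam UMI the WT log2 ratio was −0.08. The ratio of the target sums thus moved with which cells were counted as mesenchyme. The cells counted as progenitors mattered too. The pancreatic part stood above the whole progenitor-like class in both libraries, and above mesenchyme-like cluster 0 as well. The KO ratio without Epcam-positive cells is not reported here. The log2 ratio of Fgf10 over progenitor-like cells was 1.32 in WT and 2.04 in KO without cluster 4, and 1.04 and 2.54 in cells without an Epcam UMI, where the WT value rests on 3 UMIs and its interval includes 0.

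Among endocrine-like cells the target sum differed between finer groups. The cells led by Neurog3 had 191 CPM (118 to 292) in 12 WT cells and 127 CPM (89.8 to 174) in 38 KO cells. Cells led by Sct and Pyy had 62.4 CPM (40.0 to 92.8) in 34 WT cells and 139 CPM (112 to 172) in 61 KO cells, and cells led by Ghrl and Ins1, both hormone genes, had 36.8 CPM in 13 WT and 66.2 CPM in 29 KO cells. In WT the Neurog3-led cells lay above the Sct and Pyy group with intervals that did not overlap, and in KO these intervals overlapped.

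Most of the Etv4 of KO endocrine-like cells was in the Sct and Pyy group, with 37 UMIs (58.6 CPM) against 3 UMIs (7.80 CPM) in WT. The Ghrl-led cells had 0 Etv4 UMIs in WT and 5 in KO. Neurog3-led cells had almost no Fgfr1 or Fgfr2, with 1 and 2 UMIs of Fgfr1 and 1 and 1 of Fgfr2, WT first, while Fgfr4 had 3 and 11 UMIs. Etv5 in them stood at 109 CPM in WT and 46.7 CPM in KO. Against the pancreatic progenitor part the Neurog3-led cells had a target sum of 0.745 (0.456 to 1.16) in WT and 0.376 (0.258 to 0.534) in KO. In that contrast 3 of 7 members (Fgfr1, Fgfr2 and Etv4) were at least 2-fold lower in both libraries, where 6.43% of genes were. All 3 passed the UMI filter only through the pancreatic progenitor part. The filter favoured this outcome, and the count adds no support to the ratios.

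**Figure D2:**
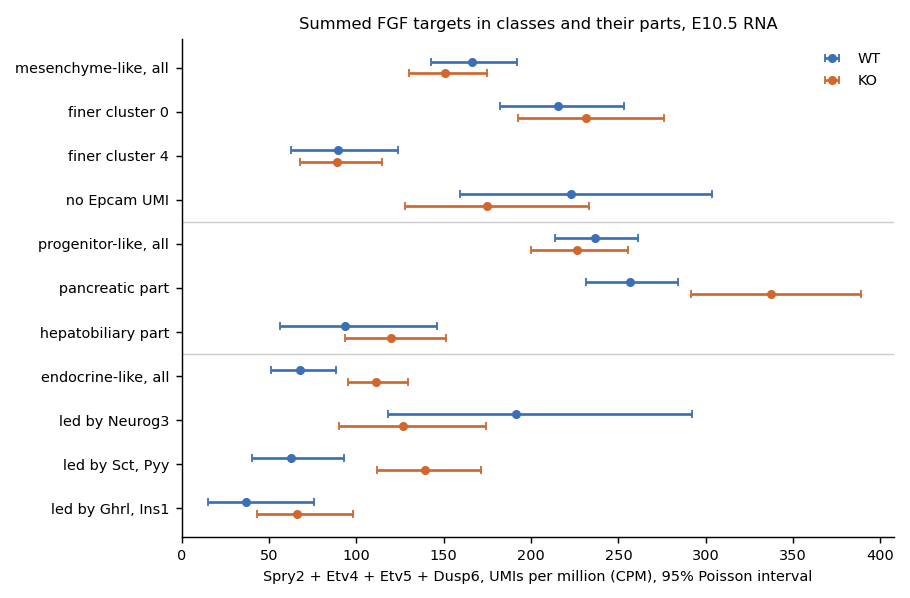
Summed level of Spry2, Etv4, Etv5 and Dusp6 (CPM, axis from 0) in the E10.5 RNA classes and in groups of cells within them, WT blue and KO orange, with 95% exact Poisson intervals that cover counting error only. The pancreatic part of the progenitor-like class lies highest (257 in WT, 338 in KO), and the hepatobiliary part and finer mesenchyme-like cluster 4 lie well below the other groups of their class.

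The rest of the pathway was read from 97 genes in 7 lists of ligands, receptors and co-receptors, heparan sulfate genes, signal transducers, feedback inhibitors, transcriptional targets and splicing regulators. Receptors and co-receptors were the list with the largest share of genes lower in endocrine-like cells: 5 of the 6 with enough UMIs (Fgfr1, Fgfr2, Fgfrl1, Flrt2 and Flrt3) were at least 2-fold lower than in progenitor-like cells in both libraries, with list medians of −1.55 and −1.76; over all genes 3.99% were that much lower. Flrt2, an adhesion protein that interacts with FGF receptors, went from 245 CPM in WT and 170 CPM in KO progenitor-like cells to 16.1 and 20.8 CPM in endocrine-like cells. Of the heparan sulfate genes, which hold FGF10 at the cell surface, 5 of 15 were lower (Sdc1, Sdc4, Gpc3, Gpc6 and Hspg2), with list medians of −0.03 and −0.16. Gpc3 stood at 653 and 475 CPM in progenitor-like and 167 and 161 CPM in endocrine-like cells. The 5 receptor and co-receptor genes, and Sdc1, Sdc4, Gpc6 and Hspg2, passed the UMI filter only through their progenitor-like cells. The filter thus shaped these counts, the order of the lists and the list medians, which add no support to the ratios.

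Of the signal transducers, the shared RAS and ERK machinery, 0 of 18 genes were 2-fold apart in both libraries. Of 12 feedback inhibitors only Dusp9 was lower, at 23.5 and 20.8 CPM against 124 and 277 CPM in progenitor-like cells. Of 9 transcriptional targets Etv4, Ccnd1 and Phlda1 were lower and Etv1, a further ETS factor of the Etv4 family, was higher, at 183 and 138 CPM in endocrine-like against 16.9 and 10.4 CPM in progenitor-like cells. Etv1 thus ran opposite to Etv4 between the same classes, and 5.99% of all genes were at least 2-fold higher in endocrine-like cells in both libraries. Etv1 passed the UMI filter only through its endocrine-like cells, so its place in that count adds no support to its ratio. Neither of the splicing regulators Esrp1 and Esrp2, which make the epithelial form of Fgfr2, was 2-fold apart on CPM plus 10 in both libraries. Esrp1 stood at 43.6 and 54.4 CPM in progenitor-like and 18.5 and 28.1 CPM in endocrine-like cells (log2 ratios of −0.91 and −0.76), and Esrp2 had log2 ratios of −1.07 in WT and −0.52 in KO.

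In mesenchyme-like cells Fgf10 and Sulf2 were at least 2-fold higher than in progenitor-like cells in both libraries, and Ccnd1 was lower, as were 0.594% of all genes. Sulf2, which trims heparan sulfate outside the cell, stood at 85.2 and 95.7 CPM in mesenchyme-like and 22.4 and 33.7 CPM in progenitor-like cells. Esrp1 was lower in mesenchyme-like cells, at 15.2 and 22.3 CPM, and by less than 2-fold in at least 1 library.

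KO over WT in progenitor-like cells, the highest and lowest genes of the lists were Flrt3 and Flrt2 for the receptors (log2 ratios of 1.24 and −0.50), Hspg2 and Gpc3 for heparan sulfate (0.73 and −0.45), Dusp9 and Dusp7 for the feedback inhibitors (1.10 and −0.42) and Phlda1 and Egr1 for the targets (1.31 and −0.68). Of the transducers, the adaptor gene Gab1 was highest (0.45). Flrt3 went from 39.3 to 106 CPM, Dusp9 from 124 to 277 CPM and Phlda1 from 108 to 282 CPM. The share of hepatobiliary cells in the class was larger in KO, and within the libraries Flrt3 stood at 202 and 166 CPM in the hepatobiliary against 16.6 and 44.2 CPM in the pancreatic part, WT first. Dusp9 stood at 349.6 and 427 CPM against 92.4 and 120.2 CPM. Phlda1 stood at 133 and 123 CPM in the hepatobiliary and 104 and 449 CPM in the pancreatic part. In mesenchyme-like cells Fgf10 and Fgf9 were the only ligands with enough UMIs (0.40 and −0.91). The highest and lowest genes there were Fgfr1 and Flrt2 for the receptors (0.10 and −0.84) and Hs2st1 and Gpc3 for heparan sulfate (0.39 and −0.63). They were Il17rd and Spred2 for the feedback inhibitors (0.36 and −0.30) and Etv1 and Ccnd1 for the targets (0.63 and −0.43). Map2k1 was the highest of the transducers (0.57).

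The genes whose levels ran most like a member were taken over 8 points, 4 clusters in 2 libraries, among 6006 genes with at least 200 UMIs. These points share libraries and differ in depth, and with so few of them high values of Pearson's r are common. Fgf10 ran most like Asnsd1 (0.968), Ublcp1 and Pde5a, Fgfr1 most like Gpc6 (0.99), Ephb4 and Serpinh1, and Fgfr2 most like Fzd2 (0.978), Cald1 and Acsl3. Gpc6 belongs to the heparan sulfate list, and it stood at 104 and 110 CPM in mesenchyme-like, 59.3 and 72.6 CPM in progenitor-like and 9.88 and 12.7 CPM in endocrine-like cells, the order of Fgfr1. Etv4 ran most like Rassf7 (0.964), Prmt7 and Prss23, Etv5 most like Nup54 (0.939), Nr5a2 and Onecut1, Dusp6 most like Efna4 (0.972), Nrep and Zscan21, Fgfr4 most like Bfar (0.977), Gtpbp2 and Asah1, and Spry2 most like Cdkn2aipnl, Siah1a and 2410002F23Rik.

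In the E10.5 ATAC libraries the accessibility of the 7 listed genes stood at nearly the same level in both genotypes. The deposited signal is scaled to 10000 per cell, carries no depth and so gives no interval, and its level is not compared between genes. Over 838 WT and 700 KO cells the mean signal was 0.466 and 0.464 for Fgf10, 1.43 and 1.44 for Fgfr1 and 2.40 and 2.64 for Fgfr2. The targets stood at 2.34 and 2.32 for Spry2, 2.04 and 2.08 for Etv4, 2.10 and 2.24 for Etv5 and 2.77 and 2.88 for Dusp6. The log2 ratios KO over WT ran from −0.01 (Spry2) to 0.14 (Fgfr2), beside a median of 0.00 over all genes, and 0 of 7 were 1.5-fold apart, where 0.256% of 8219 genes were in either direction.

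No ATAC cluster met the rule for a mesenchyme-like or progenitor-like name, so the endocrine-like cluster (59 WT and 67 KO cells) was compared with the unnamed clusters together. Fgf10 was lower in endocrine-like cells, at 0.243 against 0.482 in WT and 0.165 against 0.495 in KO. Etv4 was lower as well, at 1.36 against 2.10 in WT and 1.37 against 2.16 in KO, log2 ratios of −0.62 and −0.65. These were the 2 of 7 members at least 1.5-fold lower in both libraries, where 4.63% of 8215 genes were, and 0 of 7 were 2-fold lower, where 1.03% were. Fgfr1 had log2 ratios of −0.37 and −0.79 and Fgfr2 of −0.43 and −0.52, the direction of their RNA, while Etv5 had 0.03 and 0.18. Etv4 accessibility in endocrine-like cells was 1.36 in WT and 1.37 in KO, so the difference between the genotypes seen in its RNA had no counterpart there.

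The unnamed clusters of E10.5 differed little. In cluster 0, with 490 WT and 436 KO cells, Fgfr2 had the largest ratio of the members, at 2.43 and 2.85 (log2 ratio 0.23, with 3.66% of genes as high or higher). In cluster 1, whose cells had signal in a median of 2250 and 2308 genes, Dusp6 stood at 2.39 and 3.07 (0.36) and Spry2 at 2.14 and 2.47 (0.21). In the endocrine-like cluster Fgfr1 stood at 1.13 and 0.864 (−0.38) and Fgf10 at 0.243 and 0.165 (−0.56), from few cells.

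**Figure D3:**
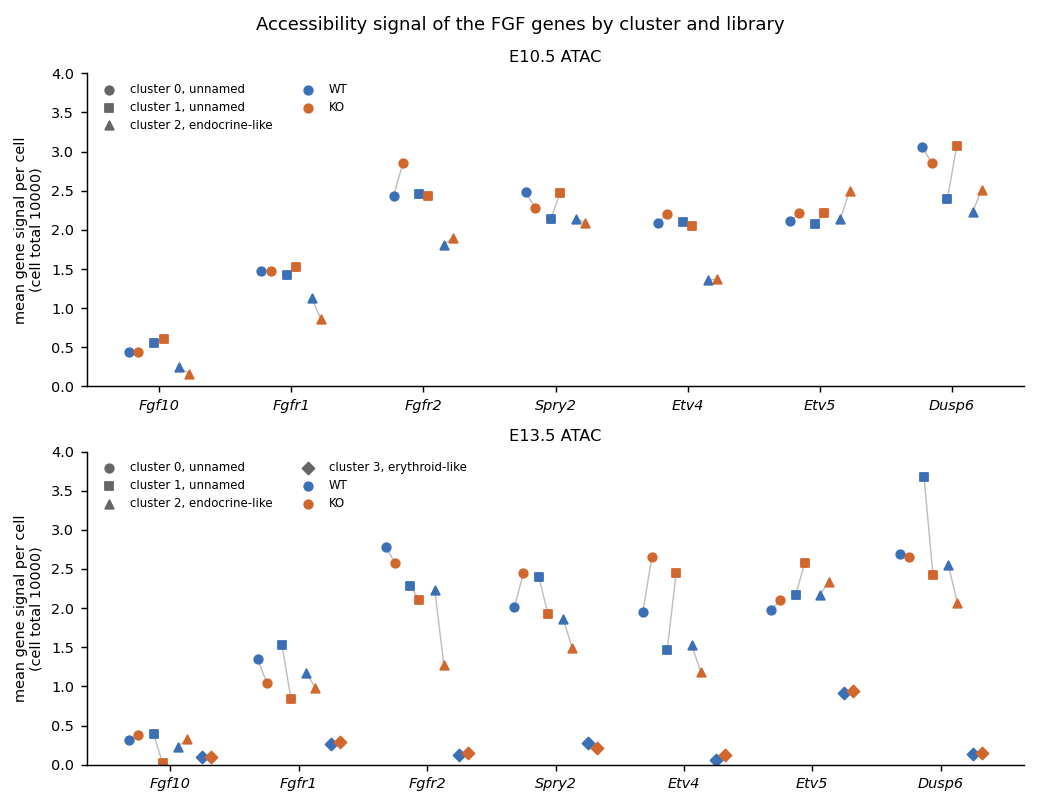
Mean ATAC gene signal per cell (cell total 10000, axis from 0) of the 7 listed genes in each cluster of the E10.5 (top) and E13.5 (bottom) libraries, WT blue and KO orange, with lines joining the genotypes; the stages were scaled separately and no error can be given. At E10.5 Fgf10 and Etv4 lie lowest in the endocrine-like cluster, and at E13.5 the erythroid-like cluster lies near 0 for all genes except Etv5 (0.913 and 0.937).

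At E13.5 all 7 genes had less signal in KO than in WT over all cells. Dusp6 stood at 2.83 in WT and 1.46 in KO (log2 ratio −0.95), Fgfr1 at 1.31 and 0.685 (−0.94), Fgfr2 at 2.37 and 1.34 (−0.82) and Spry2 at 2.01 and 1.33 (−0.60). Fgf10 stood at 0.313 and 0.225 (−0.48), Etv5 at 2.01 and 1.63 (−0.30) and Etv4 at 1.61 and 1.38 (−0.23). The median of the members was −0.60, beside −0.03 over all genes. Dusp6, Fgfr1, Fgfr2 and Spry2, 4 of 7, were at least 1.5-fold lower, where 11.9% of 8208 genes were.

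These values moved with the share of erythroid-like cells, at 6.05% in WT, where they were 140 of 2314 cells, and 45.0% in KO, where they were 271 of 602. In that cluster the signal of the members other than Etv5 was low in both libraries, at 0.122 and 0.153 for Fgfr2, 0.143 and 0.152 for Dusp6 and 0.0641 and 0.127 for Etv4. Etv5 stood there at 0.913 and 0.937. The summed erythroid list over all cells was 6.98 in the WT and 22.96 in the KO library, and the summed epithelial list 49.4 and 25.3. Without the erythroid-like cluster, a reading added after the data had been examined, the median of the members was −0.01 beside 0.00 over all genes.

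Without erythroid-like cells the members no longer moved together. Dusp6 stood at 3.0 and 2.54 (−0.24), Fgfr1 at 1.38 and 1.01 (−0.45) and Fgfr2 at 2.52 and 2.32 (−0.12). Fgf10 stood at 0.327 and 0.325 (−0.01), Spry2 at 2.12 and 2.24 (0.08), Etv5 at 2.08 and 2.20 (0.08) and Etv4 at 1.71 and 2.41 (0.49). Etv4 was thus the member with the highest KO ratio, with 2.26% of genes as high or higher, and Fgfr1 the one with the lowest. None of the 7 was 1.5-fold apart, where 2.1% of 8223 genes were in either direction.

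**Figure D4:**
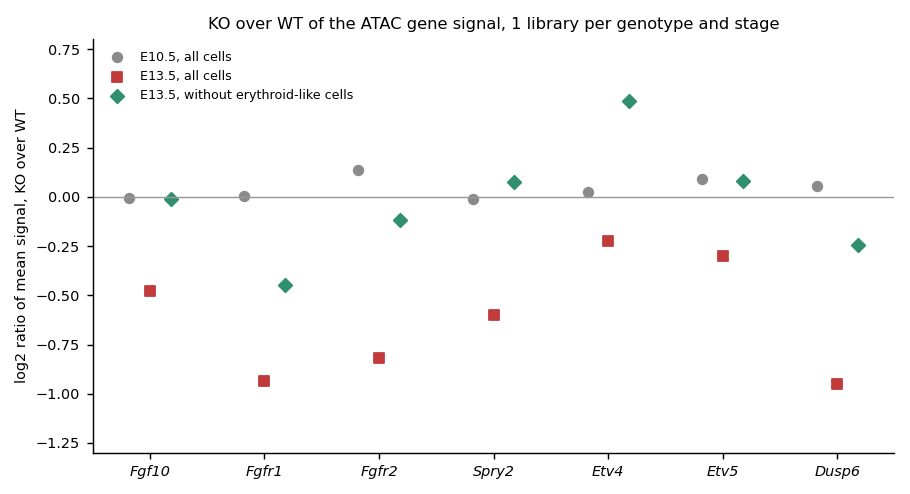
Log2 ratio of the mean ATAC signal, KO over WT, of the 7 listed genes over all E10.5 cells (grey circles), all E13.5 cells (red squares) and E13.5 cells without the erythroid-like cluster (green diamonds), 1 library per genotype and stage. All red squares lie below 0, and without erythroid-like cells the points run from −0.45 (Fgfr1) to 0.49 (Etv4).

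Within the clusters of E13.5 the genes behaved apart. Cluster 0, with 1068 WT and 237 KO cells and 13 of 14 epithelial markers raised, had Etv4 at 1.95 and 2.65 (0.45), Spry2 at 2.01 and 2.45 (0.28), Fgfr1 at 1.35 and 1.05 (−0.36), Fgfr2 at 2.78 and 2.58 (−0.11) and Dusp6 at 2.69 and 2.66. In the endocrine-like cluster, with 367 WT and 49 KO cells, Fgfr2 stood at 2.23 and 1.28 (−0.80), Etv4 at 1.53 and 1.19 (−0.37) and Dusp6 at 2.55 and 2.07. The KO ratio of Fgfr2 was lower in the endocrine-like cluster than in cluster 0, and Etv4 was higher in KO in cluster 0 and lower in the endocrine-like cluster, differences that were not tested.

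Read between clusters, the endocrine-like cells of E13.5 had less Etv4 than the unnamed clusters in KO (1.19 against 2.62, log2 ratio −1.14) and by a log2 ratio of −0.19 in WT. The unnamed cells were 1068 of cluster 0 and 739 of the sparser cluster 1 in WT, and 237 and 45 in KO. Against cluster 0 alone the Etv4 ratio was −0.34 in WT and −1.15 in KO, and against cluster 1 it was 0.06 and −1.04. Fgfr2 had −0.21 in WT and −0.97 in KO against the unnamed clusters together, and −0.32 and −1.01 against cluster 0. Spry2 had −0.22 and −0.67, and −0.11 and −0.72 against cluster 0. Etv5 had 0.08 in WT and 0.10 in KO, near level in both. No member was at least 1.5-fold lower in both libraries, where 1.7% of 8198 genes were, against Fgf10 and Etv4 at E10.5. The matrices of the stages were scaled separately, so the levels stand side by side only.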

How the data were processed

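The deposited RNA values are whole UMI counts for each gene in each cell, made with a 10x 3' kit per the labels' protocols. The ATAC matrices hold a gene-level signal per cell as deposited by the authors, which sums to 10000 per cell over 8269 genes. The build is mm10 per the submitters' processing notes, while the aligner and the ATAC signal tool were not stated in any label or header used. The 9 members and all lists were chosen with earlier results of these data known.

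The RNA cells kept had 1000 or more detected genes, and scrublet doublet calls (2 in WT, 8 in KO) stayed in. Clustering used scanpy 1.11.5 with leidenalg 0.10.2 (2000 variable genes, 30 components, 15 neighbours, Leiden resolution 0.3) without Ptf1a, acinar and FGF genes, and clusters were named from marker lists when their mean log2 ratio reached 0.3 with at least 3 markers raised provided that none of the remaining lists had more genes in the cluster's top 10 (E13.5 ATAC cluster 0 failed on this last point). Parts of a class are its cells in the clusters of resolution 0.5. UMIs were summed per class and library. Intervals are exact 95% Poisson or conditional ones (scipy 1.17.1) and cover counting error only. Gene ratios were taken on CPM plus 10 for genes with at least 50 UMIs, and ATAC ratios on mean signals for genes with signal in 10% or more of either library's cells. The UMI total ran over both sides of a comparison, so a gene could pass only through the side where it was high. The scripts were tested on simulated data. With 1 library per group no test was run. Genes named were the 9 members, the extremes of each FGF list KO over WT in progenitor-like and mesenchyme-like cells, and the 3 genes most like each member; the other names were added after their values were seen. The lowest transducer of each comparison is not reported here.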

Additional observations from a re-analysis of the deposited data

Results flagged for a closer look

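Etv4 accessibility at E13.5 pointed opposite ways in different clusters. Its log2 ratio KO over WT was 0.45 in unnamed cluster 0 and 0.74 in unnamed cluster 1, and −0.37 in the endocrine-like cluster. The difference was not tested, and cluster 1 held 45 KO cells with signal in a median of 1274 genes.

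Fgf10 accessibility at E13.5 was higher in KO in the endocrine-like cluster (0.50) and lower in cluster 1 (−4.58), where the KO mean was 0.0164 against 0.394 in WT. In cluster 1 only 2.22% of 45 KO cells and 12.2% of 739 WT cells had any Fgf10 signal. The value of −4.58 thus lies near the floor and is no measure of a loss. In the endocrine-like cluster the ratio was 0.50 at E13.5 and −0.56 at E10.5. Neither difference was tested.

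Fgf10 RNA was also found in the unnamed RNA cluster, which entered no class comparison. It stood there at 15.1 CPM in WT (8 UMIs, 6.53 to 29.8), where 3 UMIs would be 5.67 CPM, and at 46.9 CPM in KO (7 UMIs, 18.9 to 96.7), where 3 UMIs would be 20.1 CPM.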

How the results depend on the processing

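No paired analysis was possible because each group is 1 library, and for the same reason no library could be left out. Values below are log2 ratios; the parts of classes, the set without Epcam UMIs and the reading without erythroid-like cells were chosen after seeing the data. Apart from the shifts that follow from which cells were counted, the cause was not tested. The KO over WT ratio of the target sum in progenitor-like cells (−0.06) was 0.38 and 0.31 at Leiden resolutions 0.5 and 0.8, 0.38 in the pancreatic and 0.33 in the hepatobiliary part, and in endocrine-like cells (0.64) it was 1.13 after thinning. The mesenchyme-like over progenitor-like target ratio in WT (−0.49) was −0.75 at resolution 0.8, 0.76 against the hepatobiliary part, −0.17 without cluster 4 and −0.08 without Epcam-positive cells. In KO (−0.55) it was −1.21 and −1.20 at resolutions 0.5 and 0.8, −0.14 thinned, −1.11 and 0.31 against the pancreatic and hepatobiliary parts and 0.00 without cluster 4. The endocrine-like over progenitor-like ratio in WT (−1.66) was −2.06 and −2.12 at those resolutions, −2.40 with the FGF genes kept in the clustering and −0.41 against the hepatobiliary part. In KO (−0.96) it was −1.51 and −1.50, −1.68 with the FGF genes kept, and −1.52 and −0.10 against the parts. Fgf10 in mesenchyme-like over progenitor-like cells was 2.30 (WT) and 3.96 (KO) with 1 CPM added in place of 10, 2.04 (KO) without cluster 4 and 2.54 (KO) without Epcam-positive cells. Its KO over WT ratio in mesenchyme-like cells (0.40) was 1.24 without Epcam-positive cells. Fgfr2 KO over WT in progenitor-like cells was −0.11 after thinning, from few UMIs. The E13.5 ATAC median of the members (−0.60) was 0.08, −0.31, −0.31 and 0.11 in clusters 0 to 3, −0.12 on shares of cells and −0.01 without erythroid-like cells. Members that turned positive were Fgf10 (0.28, 0.50 and 0.11 in clusters 0, 2 and 3, 0.45 on shares), Fgfr1 (0.08 in cluster 3), Fgfr2 (0.32 in cluster 3), Spry2 (0.28 in cluster 0, 0.08 without erythroid-like cells), Etv4 (0.45, 0.74 and 0.98 in clusters 0, 1 and 3, 0.49 without erythroid-like cells), Etv5 (0.08, 0.25, 0.10 and 0.04 in clusters 0 to 3, 0.05 on shares, 0.08 without erythroid-like cells) and Dusp6 (0.10 in cluster 3). In all, 76 of 105 RNA values of the main results and 192 of 222 single-gene RNA ratios stayed within their counting interval. The ATAC signal carries no depth, so its precision is unknown.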

Other observations

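Il17rd, a membrane inhibitor of FGF signalling, had 0 UMIs in WT endocrine-like cells and stood at 6.70 CPM in KO. Phlda1, a target of ERK signalling, stood at 18.5 CPM in WT and 51.6 CPM in KO endocrine-like cells, the direction of Etv4, Spry2 and Dusp6 there. Of the same target list Ccnd1 was also higher in KO, at 67.0 against 45.7 CPM. Etv5, Etv1 and Egr1 went the other way, at 34.8, 138 and 9.38 CPM in KO against 43.2, 183 and 19.8 CPM in WT. Map2k1, the kinase that activates ERK, stood at 37.1 and 71.7 CPM in endocrine-like and at 32.3 and 52.8 CPM in mesenchyme-like cells, higher in KO in both. Fgf14, an intracellular relative of the FGF ligands, stood at 32.1 CPM in WT and 17.4 CPM in KO endocrine-like cells. These genes were picked after their values were seen, and no difference between the libraries was tested.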
